A study of Mus musculus with 4 samples.

Results

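The cytosolic and mitochondrial heat shock chaperones were followed in mouse embryonic stem cells (ESC) exposed to MS-275, a benzamide that inhibits class I histone deacetylases. The group was fixed by gene name and holds 10 genes: the HSP90 pair Hsp90aa1 and Hsp90ab1, the HSP70 family members Hspa1a, Hspa1b, Hspa8 and Hspa9, the HSP110-type Hspa4, the chaperonin Hspd1 with its partner Hspe1, and the small heat shock protein Hspb1. Of these 10 genes, 9 were among the 28250 genes with deposited expression values, and all 9 were tested. Hspa1b was not among them and was read from the deposited alignments alone. The RNA came from TBV2 ESC, a feeder-dependent line treated in the presence of LIF. Whether feeder cells were present in the sequenced cultures is not given in the sources used here. Each condition was sequenced as replicates 1 and 2: cells with solvent for 24 h, and cells with 5 µM MS-275 for 24 h. No separate culture is given for the replicates in the labels, so the spread between these samples may be technical. The p-values of the limma fits rest on this spread and, in part, on that of other genes. With bulk RNA, fewer cells of a type and less RNA per cell cannot be told apart.

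Chaperones bind unfolded or partly folded proteins and release them in cycles of ATP binding and hydrolysis. HSP70 proteins act early on a client with the help of J-domain co-chaperones and of HSP110-type exchange factors, and HSP90 acts later, on kinases and hormone receptors among others. The HSP60 chaperonin encloses its clients in a chamber capped by HSP10 inside mitochondria, and small heat shock proteins hold unfolded proteins without using ATP. Under heat or proteotoxic stress the transcription factor HSF1 binds arrays of inverted nGAAn units, the heat shock element, and turns on the inducible members, of which Hspa1a and Hspa1b are the best known. Hspa8, Hsp90ab1 and the mitochondrial chaperones are made without stress.

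Hspa1a and Hspa1b are near copies of each other, and both moved with MS-275 in the results that follow, so the 250 bases before each start are given first. They come from RefSeq on GRCm38.p6, minus strand of both, Hspa1a at chr17:34972157-34972406 and Hspa1b at chr17:34959239-34959488. Capitals mark the inverted pair GAANNTTC of heat shock units, and the CCAAT box, here read as its reverse complement ATTGG.
Hspa1a: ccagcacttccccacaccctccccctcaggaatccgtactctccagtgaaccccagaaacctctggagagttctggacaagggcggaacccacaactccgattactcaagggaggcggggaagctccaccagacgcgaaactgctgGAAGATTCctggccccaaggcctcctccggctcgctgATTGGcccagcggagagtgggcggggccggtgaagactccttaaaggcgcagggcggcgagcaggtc
Hspa1b: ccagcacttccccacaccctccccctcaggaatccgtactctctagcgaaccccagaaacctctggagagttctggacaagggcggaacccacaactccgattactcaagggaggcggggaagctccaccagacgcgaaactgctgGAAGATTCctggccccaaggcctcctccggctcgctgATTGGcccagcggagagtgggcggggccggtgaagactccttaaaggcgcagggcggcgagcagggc
The stretches were identical at 98.8% of the 250 bases and differed by C44T, T47C and T249G, with the base of Hspa1a first and positions counted from 1 at the 5′ end. In both, the inverted pair began 104 bases and the CCAAT box 67 bases before the start. Their coding sequences, from GENCODE M1 transcripts, were identical at 99.4% of 1929 aligned positions.

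For contrast, the units found before the starts of Hspe1 and Hspb1, which did not pass a test of MS-275 against solvent in the deposited values, are given as 30 bases of the plus strand, at chr1:55088053-55088082 and chr5:135887801-135887830 of GRCm38.p6. Capitals mark GAANNTTC and TTCNNGAA, which overlap in Hspe1.
Hspe1: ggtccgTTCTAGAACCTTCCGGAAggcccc
Hspb1: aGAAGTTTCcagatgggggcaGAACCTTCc
GAANNTTC was found in the 250 bases before 6.69% of 32851 RefSeq starts, and TTCNNGAA before 7.17%. Both read the same on either strand. An array of 3 alternating units, GAANNTTCNNGAA or its reverse complement, was found before 0.466% of starts. The array was found before Hspe1 and before the inner start of Hspd1, where it is the same stretch read from the opposite strand. It was not found before Hspa1a, Hspa1b, Hspb1 or Hspa4. Only exact, ungapped matches in these 250 bases were searched. Imperfect or gapped arrays, which can also be heat shock elements, were not looked for, so a missing match does not mean a missing element. CCAAT, read on both strands, was found before 33.8% of starts. Of the 10 chaperones, 6 had an entry in the promoter table, and Hsp90aa1, Hsp90ab1, Hspa8 and Hspa9 had none.

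The deposited values are a normalized expression signal per gene on the authors' scale, with mm9 as the build. Whether they are per length of transcript is not given in the sources used here. The alignment sets held 9785619 to 23467935 alignments of 35 bases. In the sets deposited with replicate 1, 53.2% and 54.4% of alignments repeated a position already used, and in those deposited with replicate 2 none did. The expression values of each library correlated at 0.75 to 0.853 with the alignments under its own number, and at 0.887 to 0.918 with those under the opposite number of the same condition (across 11025 genes, which are not independent replicates). In all 4 libraries the values thus followed the alignments under the opposite number more closely. Each number is given as deposited, so replicate 1 by value and replicate 1 by alignments may be different libraries. Values and alignments of one number should therefore not be compared pair by pair. What lies behind the crossing was not tested. The 10 ESC markers summed to 6.08 and 23.2 in solvent and to 4.83 and 13.6 with MS-275, and none was at 0 in every library. Counts of genes below are given for fits without and with the replicate number as a block, because headers of tables by the authors mark replicate 1 of both conditions as old. The alignment sets are named the other way round, with old for those deposited with replicate 2 of both conditions.

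**Figure D1:**
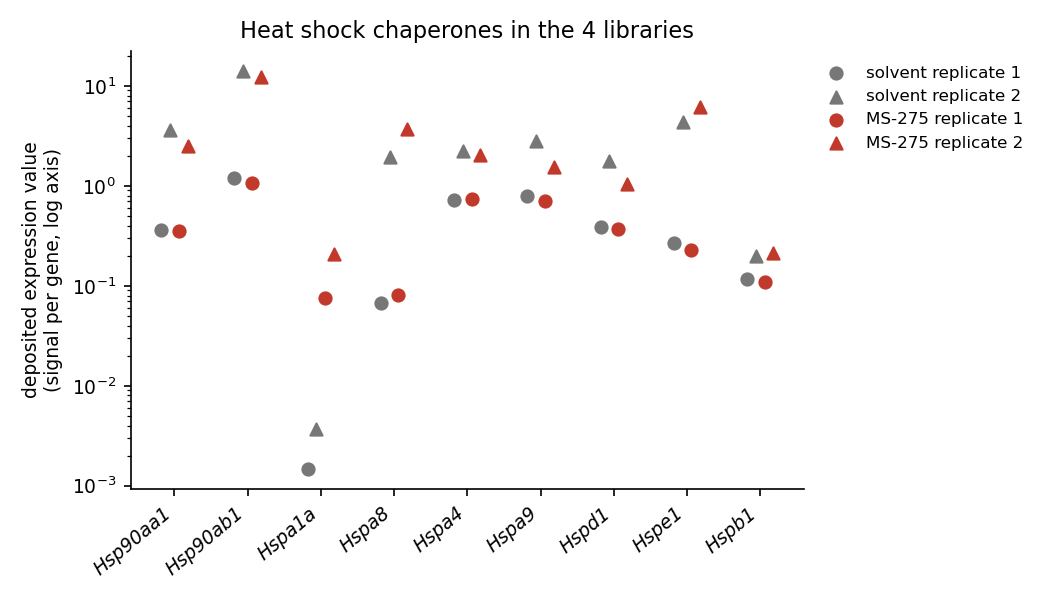
Deposited expression value (log axis) of the 9 listed chaperones in each of the 4 libraries. Grey marks are solvent, red marks are MS-275, circles are replicate 1 and triangles replicate 2. For Hspa1a alone, both red marks lie above both grey marks.

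Hspa1a, the stress-inducible cytosolic HSP70, was the chaperone that stood apart. Its deposited value was 0.00146 and 0.00366 in solvent replicates 1 and 2, and 0.0747 and 0.208 with MS-275. Both MS-275 libraries were above both solvent libraries, by 51.2-fold in the first replicate pair and 56.9-fold in the second. Even so it had the lowest value of the 9 chaperones in all 4 libraries: it ranked 18304 and 15312 of 28250 genes in solvent, and 9316 and 4150 with MS-275. On the log2(value + 0.005) scale, which understates the change of a gene this low, the fold change was 4.12 (SE 0.692). It missed the threshold of 0.05 without the block (limma, adjusted p = 0.0581, 2 libraries a group) and passed it with the block (SE 0.326, adjusted p = 1.29e-06). Fits with 1 library left out cannot measure the spread of the condition that keeps a single library. In them the fold change of Hspa1a was 3.41 to 4.83. Its rise with the block was at rank 10 by size of 20336 genes tested.

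Across all genes tested, the share called higher was 0.00492% without the block (1 gene) and 21% with it, and the share called lower was 0% and 6.46%. The calls without the block stand beside 2974 higher and 564 lower genes at an unadjusted p under 0.05. Of the 9 chaperones, none was called without the block, and Hspa1a was the 1 called with it, as higher. Both MS-275 values lay above both solvent values for 1 of 9 chaperones (32.3% of all genes) and below them for none (12% of all genes). Both pairs moved up for Hspa1a and Hspa8 (50% of all genes) and down for 4 chaperones (26.5% of all genes), and for 3 the pairs went opposite ways. The median fold change of the 9 was -0.06 on the log2 scale, or -0.13 over the 8 without Hspa1a, beside 0.20 for all genes. Median-ratio scaling of the libraries took the median of all genes to -0.01. Measured from the median of all genes, Hspa1a stood at 3.93.

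The alignments show Hspa1a and its copy Hspa1b apart from each other. On mm9, Hspa1b (ENSMUSG00000090877) is a single exon at chr17:35093381-35096183 and Hspa1a (ENSMUSG00000091971) a single exon at chr17:35106144-35109069, both on the minus strand. Alignments over Hspa1a numbered 19 and 4 in the solvent sets of replicates 1 and 2, and 999 and 221 in the MS-275 sets. Alignments over Hspa1b numbered 30 and 12 in solvent, and 1477 and 274 with MS-275. Both copies were thus near the floor of counting in solvent and well above it with MS-275 in each replicate.

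Counting each position and strand once, Hspa1a had 17 and 4 distinct positions in solvent against 325 and 221 with MS-275. Scaled to the distinct positions of each set, these are ratios of 23 (95% exact interval 14.1 to 40) in replicate 1 and 49.5 (19.1 to 183) in replicate 2. Hspa1b had 26 and 12 against 369 and 274, ratios of 17.1 (11.5 to 26.5) and 20.5 (11.5 to 40.1). The intervals cover counting error only. In limma-voom on distinct positions, the share of 16803 genes called was 12.1% higher and 7.62% lower without the block, and 23.6% higher and 20.6% lower with it. Of the 10 chaperones, all tested there, Hspa1a and Hspa1b were called higher in both fits. Without the block, Hspa1a changed by 4.58 (SE 0.686, adjusted p = 0.00743) and Hspa1b by 4.01 (SE 0.539, adjusted p = 0.00604) on the log2 scale. With the block, the adjusted p was 6.87e-07 for Hspa1a and 1.4e-07 for Hspa1b. They ranked 128 and 205 by size of rise.

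**Figure D2:**
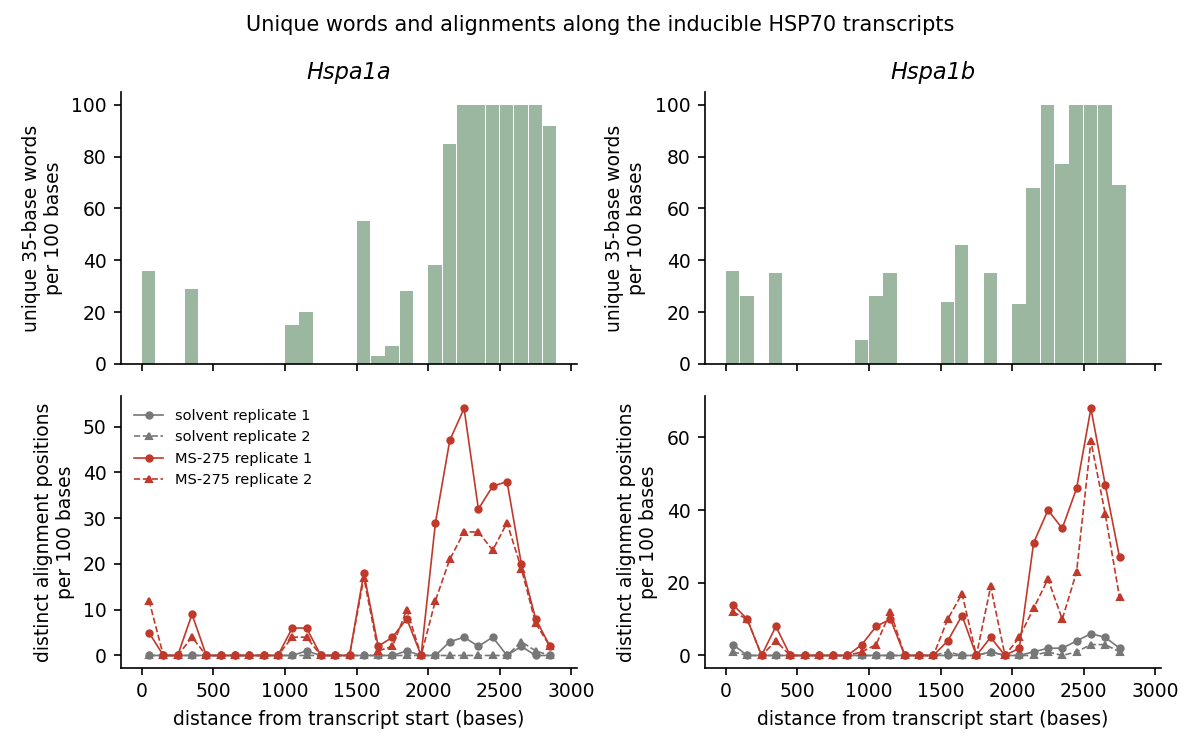
Upper panels: number of 35-base words found once in the genome, by 100-base bin of distance from the transcript start, for Hspa1a and Hspa1b. Lower panels: distinct alignment positions per bin in the 4 alignment sets (grey solvent, red MS-275, circles and solid lines replicate 1, triangles and dashed lines replicate 2). Alignments were found where unique words are, mostly in the last part of both transcripts.

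The copies can be told apart only where their sequence differs. Words of 35 bases found once in the genome made up 10.1% of the coding part of Hspa1a and 98.7% of its 3′ untranslated part, and 13% and 94.8% in Hspa1b. In the 3′ part of Hspa1a, 15 and 4 distinct positions were used in solvent and 238 and 155 with MS-275. In that of Hspa1b, 22 and 9 were used in solvent and 292 and 176 with MS-275. The few unique coding words gave the same order: 2 and 0 against 82 and 54 in Hspa1a, and 1 and 2 against 53 and 76 in Hspa1b. The gene Gm20481 overlaps Hspa1a on the opposite strand, and without strand its reads cannot be told from those of Hspa1a. Positions shared with its exons were left out of the test, which kept 12 and 4 distinct positions of Hspa1a in solvent and 230 and 164 with MS-275. The neighbour Hspa1l, a testis-expressed HSP70 gene, had 72 and 60 distinct positions in solvent and 88 and 85 with MS-275.

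Hspa8 encodes the constitutive cytosolic HSP70, HSC70. On mm9 it lies at chr9:40609067-40613283 on the plus strand, where annotated transcripts cover 4156 bases, a retained intron included. Its deposited value was 0.0672 and 1.94 in solvent and 0.0805 and 3.73 with MS-275. The replicates differed far more than the conditions: replicate 2 was 28.9-fold above replicate 1 in solvent and 46.3-fold with MS-275, while MS-275 was 1.2-fold and 1.92-fold above solvent within the pairs. The log2 fold change was 0.59 (SE 1.72, adjusted p = 0.937), and with the block the adjusted p was 0.101 (SE 0.258). Fits on 3 libraries moved it in both directions: 2.97 without solvent replicate 2, 3.31 without MS-275 replicate 1, -1.79 without solvent replicate 1 and -2.13 without MS-275 replicate 2. These fits set unequal replicates against each other.

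Alignments over the exons of Hspa8 did not show the rise seen in the second pair of values. They numbered 1092 and 225 in solvent and 927 and 234 with MS-275, which scaled to all alignments of each set is a ratio of 0.996 in replicate 1 and 0.932 in replicate 2. Over distinct positions the fold change was -0.18 on the log2 scale with the block (adjusted p = 0.425), the opposite sign to the values. Of the coding words of Hspa8, 5.29% were found once in the genome. The sets deposited with replicate 1 held no alignment at a repeated word of Hspa8. Set against the alignments that each library's values follow best, the value of Hspa8 was 17.4 and 33.4 times the alignments per base in replicates 2 of solvent and MS-275, and 1.21 and 1.56 times in replicates 1. Other genes gave medians of 1.41 to 1.57. Whether the values counted reads at repeated words was not tested.

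**Figure D3:**
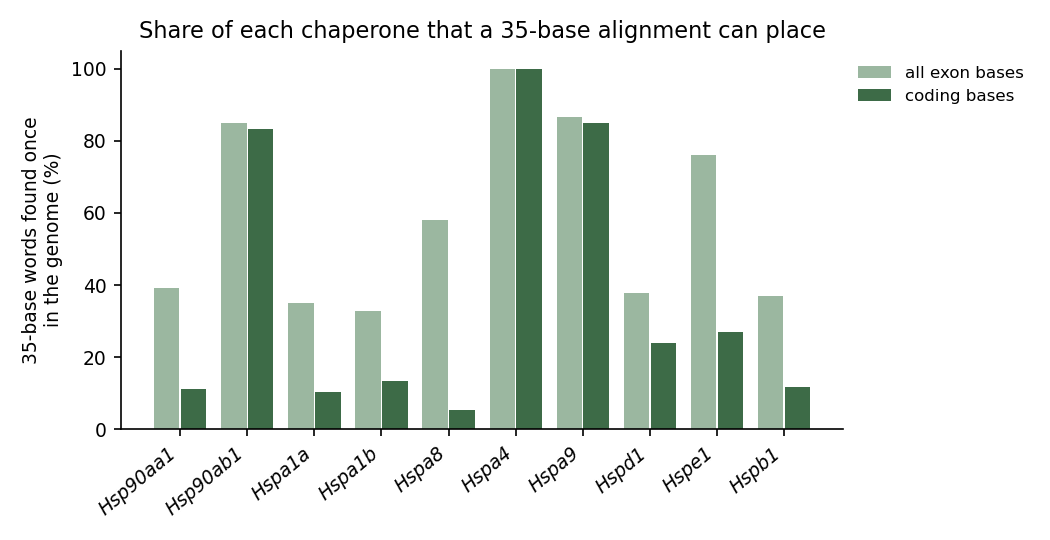
Share (%) of 35-base words found once in the genome, for all annotated exon bases (light bars) and for coding bases (dark bars) of each chaperone. Hspa4 is unique throughout, and under 15% of coding words are unique in Hsp90aa1, Hspa1a, Hspa1b, Hspa8 and Hspb1.

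Inducible to constitutive HSP70, taken as a ratio within each library, does not depend on how that library was scaled. Hspa1a was 0.0217 and 0.00188 of Hspa8 in the solvent values, and 0.927 and 0.0559 of it with MS-275. The log2 ratio differed by 5.15, and both MS-275 libraries were above both solvent libraries (two-sided exact permutation test, p = 0.333, the smallest that 2 against 2 allows). From alignments per kb, Hspa1b was 0.0407 and 0.0791 of Hspa8 in solvent and 2.36 and 1.74 of it with MS-275, a log2 difference of 5.16 (exact permutation p = 0.333). Only 5.29% of the coding words of Hspa8 were found once in the genome, and its annotated bases include a retained intron. The ratios from alignments can therefore be compared between conditions, but do not show which of the 2 RNAs was more abundant.

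Hsp90ab1, the constitutive cytosolic HSP90, had the highest value of the 9 chaperones in every library. It lies at chr17:45704724-45710220 of mm9 on the minus strand. Its value was 1.21 and 14.2 in solvent and 1.06 and 12.3 with MS-275, and it held ranks 3, 10, 10 and 18 of the 28250 genes. MS-275 values were 0.88-fold and 0.862-fold of solvent within the pairs, a log2 change of -0.20 (SE 2.73, adjusted p = 0.99, and 0.829 with the block). Alignments over it numbered 69397 and 2756 in solvent and 43660 and 2855 with MS-275. They used 65%, 59.4%, 60.7% and 61.5% of the unique positions and strands of its exons in that order. Scaled to the distinct positions of each set, the ratio of MS-275 to solvent was 1.12 in replicate 1 (1.07 to 1.18) and 0.929 in replicate 2 (0.881 to 0.979). These are on opposite sides of 1. Scaled to all alignments instead, the ratio was 0.738 in replicate 1 and 0.929 in replicate 2. A distinct position counts once however often it is repeated, and the intervals do not cover this.

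Hsp90aa1, the stress-inducible HSP90 at chr12:111928815-111940938 of mm9 (minus strand), did not pass a test in either measurement. Its value was 0.362 and 3.66 in solvent and 0.350 and 2.48 with MS-275. The MS-275 values were 0.967-fold and 0.676-fold of solvent, a log2 change of -0.31 (SE 1.26, adjusted p = 0.96, and 0.514 with the block). Its ratio to Hsp90ab1 was 0.300 and 0.257 in solvent and 0.329 and 0.202 with MS-275, and these overlap (log2 difference -0.11, exact permutation p = 1). From distinct positions per kb the ratio was 0.137 and 0.137 in solvent and 0.137 and 0.131 with MS-275.

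Hspa4 is an HSP110-type protein that speeds nucleotide exchange on HSP70, and it is the 1 chaperone of 10 in which all 35-base words are unique. It lies at chr11:53073316-53113959 of mm9, minus strand, with 19 exons. Its value was 0.722 and 2.24 in solvent and 0.732 and 2.04 with MS-275, or 1.01-fold and 0.913-fold within the pairs. The log2 change was -0.06 (SE 1.02, adjusted p = 0.991, and 0.924 with the block, SE 0.337). Over distinct positions it was -0.07 (SE 0.102, adjusted p = 0.617 with the block). The scaled ratios there were 1.12 (1.06 to 1.18) in replicate 1 and 0.982 (0.933 to 1.03) in replicate 2.

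The mitochondrial chaperones Hspa9, Hspd1 and Hspe1 were lower with MS-275 in the first pair by value, and Hspa9 and Hspd1 also in the second. Hspa9, the mitochondrial HSP70 that pulls proteins through the inner membrane, was at 0.795 and 2.80 in solvent and 0.705 and 1.56 with MS-275. Its values were 0.887-fold and 0.556-fold of solvent, a log2 change of -0.51 (SE 1.01, adjusted p = 0.897, and 0.298 with the block). Distinct positions over Hspa9 numbered 2374 and 2222 in solvent and 1758 and 2128 with MS-275, scaled ratios of 0.891 (0.837 to 0.948) and 0.859 (0.809 to 0.912). In limma-voom with the block this fall of 0.33 on the log2 scale passed (adjusted p = 0.0167), and without the block it did not (adjusted p = 0.102). Hspa9 was the 1 chaperone of 10 called lower in any fit that kept all 4 libraries. Scaled to all alignments of each set, its ratio of MS-275 to solvent was 0.515 in replicate 1 and 0.859 in replicate 2.

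Hspd1, the HSP60 chaperonin, was at 0.389 and 1.78 in solvent and 0.370 and 1.05 with MS-275, or 0.95-fold and 0.59-fold within the pairs. Its log2 change was -0.42 (SE 0.85, adjusted p = 0.901, and 0.307 with the block). Over distinct positions the scaled ratios of Hspd1 were 1.09 (0.974 to 1.22) in replicate 1 and 0.833 (0.742 to 0.934) in replicate 2. These are on opposite sides of 1, and the log2 change there was -0.25 (adjusted p = 0.177 with the block). Scaled to all alignments of each set, the ratios were 0.701 and 0.833. Hspe1, the HSP10 cap of that chaperonin, was at 0.267 and 4.34 in solvent and 0.230 and 6.14 with MS-275, or 0.863-fold and 1.42-fold within the pairs. Its pairs went opposite ways, with a log2 change of 0.15 (SE 1.64, adjusted p = 0.988, and 0.786 with the block), while distinct positions put it at -0.42 with the block (adjusted p = 0.0507). Scaled to all alignments of each set, the ratio of MS-275 to solvent for Hspe1 was 1.36 in replicate 1 and 0.815 in replicate 2.

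Hspd1 (chr1:55134679-55145087, minus strand) and Hspe1 (chr1:55144976-55148151, plus strand) lie head to head on mm9 and share 112 bases. The ratio of Hspd1 to Hspe1 was 1.46 and 0.412 by value in solvent and 1.61 and 0.171 with MS-275. These overlap between conditions, and the replicates differed more than the conditions did (log2 difference -0.56, exact permutation p = 1). From distinct positions per kb the ratio was 0.826 and 1.31 in solvent and 0.978 and 1.34 with MS-275, a log2 difference of 0.14 (exact permutation p = 0.667).

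Hspb1, the small heat shock protein HSP27 (named HSP25 in mouse), is a common HSF1 target and lies at chr5:136363789-136365433 of mm9, plus strand. Its value was 0.118 and 0.200 in solvent and 0.110 and 0.214 with MS-275. The conditions overlapped, with 0.931-fold and 1.07-fold within the pairs and a log2 change of 0.00 (SE 0.454, adjusted p = 1, and 0.999 with the block, SE 0.22). Distinct positions over Hspb1 numbered 131 and 104 in solvent and 96 and 109 with MS-275, scaled ratios of 0.882 (0.67 to 1.16) and 0.94 (0.712 to 1.24). Scaled to all alignments of each set, the ratios were 1.06 in replicate 1 and 0.94 in replicate 2.

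**Figure D4:**
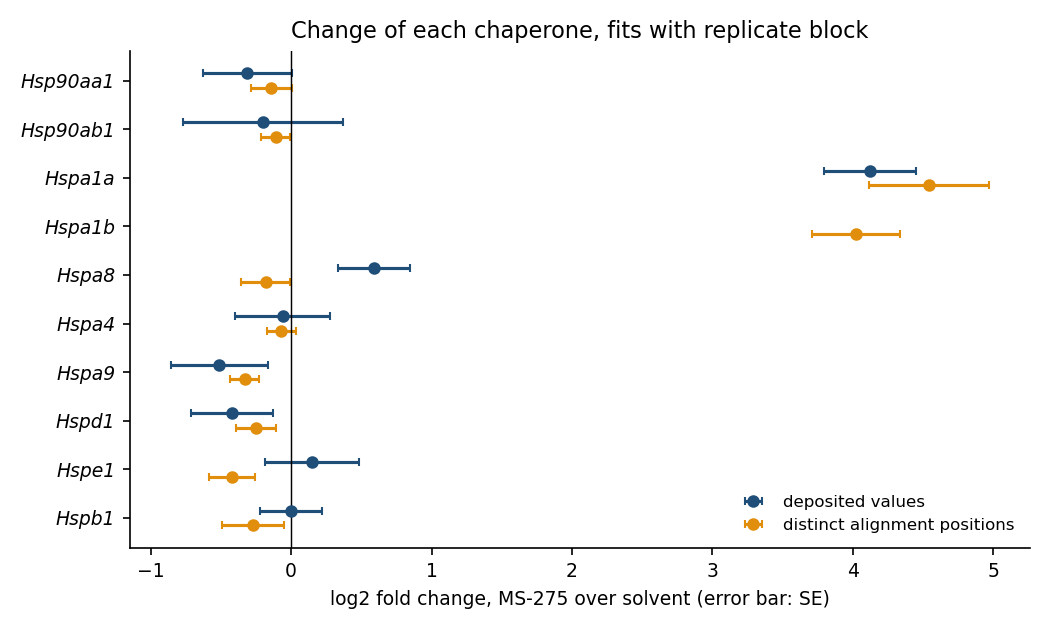
Log2 fold change of MS-275 over solvent with its SE for each chaperone, in the fits with the replicate block, from deposited values (blue) and from distinct alignment positions (orange). Hspa1b has no deposited value. Hspa1a and Hspa1b stand at 4 or more, and the others lie between -0.51 and 0.59.

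The difference between replicates was larger than that between conditions for 8 of the 9 listed chaperones, Hspa1a excepted. All 9 were higher in replicate 2 in both conditions, which was so for 19.9% of the 20336 genes tested. It was not particular to chaperones: Pou5f1 was 3.21-fold higher in replicate 2 in solvent and 1.37-fold with MS-275. The sums of the 10 ESC markers also rose, while those of the list of small heat shock proteins fell (0.404 to 0.273 in solvent, 0.436 to 0.414 with MS-275). Whether this goes with the level of a gene or with repeated positions was not tested. The ratio of replicate 2 to replicate 1 in solvent ran from 1.7 for Hspb1 through 11.8 for Hsp90ab1 to 28.9 for Hspa8, beside a median of 0.711 over all genes. The order of the chaperones changed with it. Hspe1 was at place 6 of 9 in both replicates 1 and at place 2 in both replicates 2. Hspa8 was at place 8 in replicates 1, and at places 6 and 3 in replicates 2. Hsp90ab1 was first and Hspa1a last throughout.

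Around the 10 chaperones, 93 related genes were grouped by role, and all 93 were tested. None was called in the values without the block. With the block, 11 of 93 were higher (21% of all genes) and 3 lower (6.46% of all genes). Over distinct positions with the block, 8 of 87 were higher (23.6% of all genes) and 17 lower (20.6% of all genes). Neither count of higher genes exceeds the share of all genes, and the same shares apply to each list that follows. The genes called by both measurements were 9 in number, Cryaa, Dnajb1, Dnajb2, Dnajb3, Hsf3, Hsf5, Hspa2, Hspa4l and Serpinh1. The median fold change of the 93 was 0.08 on the log2 scale, beside 0.20 for all genes.

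Among 12 relatives of HSP70, HSP110 and HSP90, 2 rose with the block and none fell in the values, and 2 of 11 rose and 1 fell over distinct positions. Hspa2, an HSP70 best known from male germ cells, was at 0.0396 and 0.0309 in solvent and 0.145 and 0.430 with MS-275. The conditions did not overlap, and the log2 change was 2.68 (adjusted p = 0.0612, and 3.34e-05 with the block). All of its 35-base words are unique, and its distinct positions went from 131 and 94 to 622 and 386. Hspa4l, a close relative of Hspa4, changed by 1.34 (adjusted p = 0.166, and 0.000463 with the block). Hsph1, the stress-inducible HSP110, was at 0.474 and 0.407 in solvent and 0.335 and 0.393 with MS-275 (adjusted p = 0.435 with the block), and over distinct positions it fell by 0.46 on the log2 scale (adjusted p = 0.00729 with the block). Hsph1 and Hspa12b, at -0.27 and 0.03, had the lowest log2 changes of the list.

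Among 24 J-domain co-chaperones, which deliver clients to HSP70, 4 rose with the block and none fell in the values, and 3 of 22 rose and 4 fell over distinct positions. Dnajb1, the stress-inducible HSP40, was at 0.206 and 0.193 in solvent and 0.274 and 0.462 with MS-275, 1.33-fold and 2.39-fold within the pairs (adjusted p = 0.021 with the block, and 0.0865 with the block and median-ratio scaling). Dnajb3 changed by 1.91 (adjusted p = 0.000675 with the block), Dnajb14 by 1.53 (adjusted p = 0.000676 with the block) and Dnajb2 by 1.36 (adjusted p = 0.00126 with the block). Dnajb14 did not pass over distinct positions, where it changed by 0.35 (adjusted p = 0.0992 with the block). Dnajb6 and Dnajc7 had the lowest log2 changes of the list, -0.48 and -0.36, and did not pass in the values (adjusted p = 0.128 and 0.373 with the block). With median-ratio scaling added, Dnajb6 passed (adjusted p = 0.0142). Over distinct positions both fell, by 0.69 and 0.58 (adjusted p = 0.00599 and 0.00111 with the block).

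Of 26 other co-chaperones, 1 passed with the block in the values, as lower, and 1 rose and 6 fell over distinct positions. The 1 lower by value was Ptges3, the HSP90 co-chaperone p23, with a log2 change of -1.38 (adjusted p = 0.000804 with the block). Its values were 0.0121 and 0.00897 in solvent and 0.00121 and 0.00066 with MS-275, and over distinct positions it did not pass (-0.30, adjusted p = 0.144 with the block). Bag2, an HSP70 co-chaperone, was at -0.69 (adjusted p = 0.0558 with the block, and 0.00713 with the block and median-ratio scaling), and over distinct positions it fell by 0.82 (adjusted p = 0.00354 with the block). Unc45a and Sgta were at 0.71 and 0.63 (adjusted p = 0.054 and 0.0518 with the block). In the list of 13 mitochondrial chaperones and proteases, 1 passed with the block, the protease Htra2, with a log2 change of 0.71 (adjusted p = 0.0299 with the block). That call was lost with the block and median-ratio scaling (adjusted p = 0.157) and over distinct positions (adjusted p = 0.124), where no gene of the list rose and 2 fell. Grpel1, the exchange factor of Hspa9, was at 0.40, and Hscb and Clpp were at -0.45 and -0.31, none of them past the threshold with the block. Hscb passed as lower with the block and median-ratio scaling (adjusted p = 0.0196).

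Of 8 small heat shock proteins, 3 rose with the block and none fell in the values, and of the 5 tested over distinct positions 1 rose and 1 fell. Hspb8 was at 0.149 and 0.182 in solvent and 0.231 and 0.300 with MS-275 (log2 change 0.66, adjusted p = 0.0335 with the block). Its call was lost with the block and median-ratio scaling (adjusted p = 0.209) and over distinct positions (adjusted p = 0.0897). Cryaa, a lens crystallin, was at 0.0064 and 0.00038 in solvent and 0.0213 and 0.00761 with MS-275 (1.22, adjusted p = 0.00371 with the block). Hspb3 was listed at 0 in solvent replicate 1 and was at most 0.00469 elsewhere (0.64, adjusted p = 0.0453 with the block). Hspb6 and Hspb2 were at -0.67 and -0.04 and did not pass with the block. Hspb6 passed as lower with the block and median-ratio scaling (adjusted p = 0.0063) and over distinct positions, where it fell by 0.97 (adjusted p = 0.00126).

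Of 7 heat shock factors and their binding proteins, 1 rose and 1 fell with the block in the values, and 1 rose and 2 fell over distinct positions. Hsf3 was at 0.00725 and 0.00086 in solvent and 0.0317 and 0.0139 with MS-275 (1.64, adjusted p = 0.00071 with the block). Hsf5 was at 0.00975 and 0.00958 in solvent and 0.00315 and 0.00387 with MS-275 (-0.79, adjusted p = 0.0385 with the block). Hsbp1 and Hsf2bp were at 0.59 and -0.45 and did not pass with the block. Hsf2bp passed as lower with the block and median-ratio scaling (adjusted p = 0.0215) and over distinct positions, where it fell by 0.48 (adjusted p = 0.0109).

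Of 14 textbook targets of HSF1 outside the 10 chaperones, which overlap the lists above, 2 rose with the block (Dnajb1 and Hspb8; 21% of all genes) and 1 fell (6.46% of all genes). Neither rise passed with the block and median-ratio scaling. Over distinct positions with the block 2 of the 14 rose and 3 fell. The 2 that rose were Dnajb1 (0.52, adjusted p = 0.0126) and Bag3 (0.42, adjusted p = 0.0494). Serpinh1, the collagen chaperone HSP47, was at 0.288 and 0.305 in solvent and 0.158 and 0.167 with MS-275. It was thus 0.548-fold and 0.547-fold of solvent in the pairs, opposite to Hspa1a (adjusted p = 0.272, and 0.00896 with the block). Chordc1 was at -0.39 and did not pass with the block (adjusted p = 0.243). It passed as lower with the block and median-ratio scaling (adjusted p = 0.0342) and over distinct positions (adjusted p = 0.0178). The list had a median of 0.35, beside 0.20 for all genes.

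**Figure D5:**
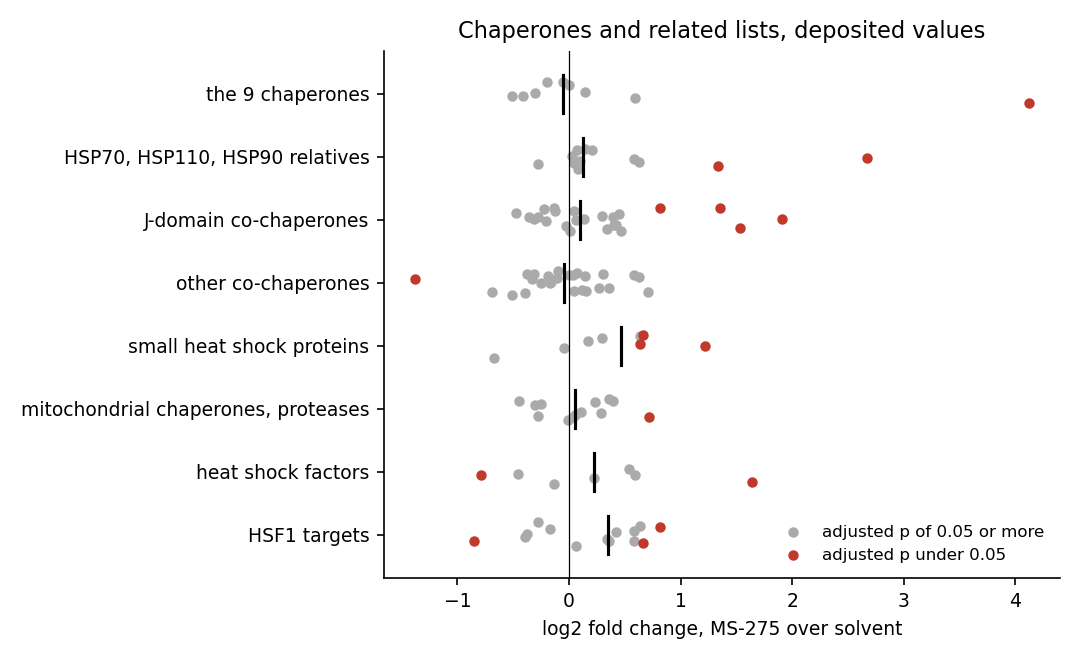
Log2 fold change of MS-275 over solvent for the 9 listed chaperones and for each list of related genes, from deposited values. Each point is a gene, red where its adjusted p with the replicate block was under 0.05, and black bars are list medians. Hspa1a, at 4.12, lies to the right of all other points.

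Markers of fibroblasts, the feeder cell type, moved with these changes. Of 14 markers, 13 were tested, 8 were higher with the block (21% of all genes) and none was lower by value. Over distinct positions with the block 7 were higher (23.6% of all genes) and 2 lower (20.6% of all genes). By value 10 were higher in both pairs (50% of all genes) and 2 were lower in both (26.5% of all genes). Their values summed to 0.458 and 0.569 in solvent and to 0.835 and 0.993 with MS-275, and none was at 0 in every library. Col1a1, a fibrillar collagen, was at 0.0146 and 0.0101 in solvent and 0.0681 and 0.110 with MS-275. Of the 10 ESC markers, 4 were lower with the block by value (6.46% of all genes) and 7 over distinct positions (20.6% of all genes), and none was higher. By value all 10 were lower in both pairs (26.5% of all genes). Pou5f1 was at 0.727 and 2.33 in solvent and 0.575 and 0.786 with MS-275. The part of either cell type in the levels of Hspa1a and Hspa1b was not tested.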

How the data were processed

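Poly(A) RNA of TBV2 ESC (2 solvent and 2 MS-275 libraries, grouped by title) was sequenced by the study. As deposited by the authors, each library has normalized expression signal values for 28250 genes, made with Genomatix from reads mapped to mm9, and a file of alignments. The aligner and the formula are not given in the sources used here. Tables of ratios and shortened tables by the authors were not used.

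limma 3.58.1 in R 4.3.3 (lmFit, eBayes with a trend, Benjamini-Hochberg) was fitted to log2(value + 0.005) for the 20336 genes at or above 0.001 in 2 or more libraries, without and with the replicate as a block. Deviations from group means correlated at 0.764 between libraries of one number, and the authors' headers mark the pairs. The eBayes step draws the variance of each gene towards that of other genes. An SE or p-value therefore does not measure the spread of that gene alone. Hsp90ab1, for example, changed by -0.18 and -0.21 on the log2 scale in the pairs, yet its SE with the block was 0.567. Distinct alignment positions on GENCODE M1 exons (10 or more in 2 or more libraries, 16803 genes, positions shared by exons of several genes left out) were tested with limma-voom. Ratios within a library were tested with exact permutation tests. All 10 chaperones are named, and of each list the 2 highest and 2 lowest genes. Other genes called by a fit were named after their values were seen. The members and lists were chosen with earlier results of these data known. Python 3.11.15, pandas 2.3.3 and scipy 1.17.1 were used.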

Additional observations from a re-analysis of the deposited data

Results flagged for a closer look

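Hspa1b is outside the table of expression values, yet the alignment sets hold 369 distinct positions over it with MS-275 in replicate 1 and 274 in replicate 2, against 26 and 12 in solvent.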

How the results depend on the processing

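In the deposited values without a block, at the filter and scaling of the report, no chaperone was called in either direction. With 1 library left out, the chaperone called higher besides Hspa1a was Hspa8, and Hspa1b was not in these fits. On the log2 scale Hspa8 changed by 2.97 without solvent replicate 2 and 3.31 without MS-275 replicate 1. It changed by -1.79 without solvent replicate 1 and -2.13 without MS-275 replicate 2. These fits set unequal replicates against each other and leave 1 condition without a spread, so no conclusion is drawn from their counts. The count of chaperones called higher was 1 with a mean value of at least 0.01, 1 with the replicate block, 1 with the replicate block and median-ratio scaling, 2 over distinct positions without the block and 2 with it, and 1 to 2 when 1 library was left out. The count called lower was 1 over distinct positions with the block, and 0 to 1 when 1 library was left out (1 without MS-275 replicate 2, Hspa8). For the related genes, called higher in no case by the fit without a block, the count was 1 with a mean value of at least 0.01, 11 with the replicate block, 8 with the block and median-ratio scaling, 4 over distinct positions without the block, 8 with it, and 0 to 2 when 1 library was left out. Called lower, it was 3 with the replicate block, 10 with the block and median-ratio scaling, 2 over distinct positions without the block, 17 with it, and 0 when 1 library was left out.

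Over all genes, 4277 were higher and 1314 lower with the block, and 3376 and 2861 with the block and median-ratio scaling. A mean value of at least 0.01 without a block gave 466 higher and 65 lower. Distinct positions gave 2038 and 1280 without the block, and 3961 and 3465 with it.

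Under 11 alternatives on all 4 libraries, Hspa1a kept its direction, from 2.71 to 5.22 on the log2 scale, with adjusted p from 1.77e-10 to 0.115. The directions of Hsp90aa1, Hsp90ab1, Hspa4, Hspa9 and Hspd1 were also kept in all 11. Hspa8 reversed to -0.21 over distinct positions without the block and to -0.18 with it. Hspe1 reversed to -0.14 with median-ratio scaling, -0.12 with quantile normalization, -0.14 with the block and median-ratio scaling, and -0.47 and -0.42 over distinct positions without and with the block. Hspb1, at 0.00026, reversed to -0.00051 with a pseudocount of 0.001, -0.28 with median-ratio scaling with and without the block, -0.095 with quantile normalization, and -0.28 and -0.27 over distinct positions. The log2 ratio of Hsp90aa1 to Hsp90ab1 differed by 0.07 from alignments per kb, and that of Hspd1 to Hspe1 by 0.14 from distinct positions. The cause of each reversal was not tested.

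With 1 library left out, the fold change ran from -1.97 to 1.35 for Hsp90aa1, -1.98 to 1.58 for Hsp90ab1, 3.41 to 4.83 for Hspa1a, -0.87 to 0.76 for Hspa4, -2.13 to 3.31 for Hspa8, -1.41 to 0.40 for Hspa9, -1.51 to 0.68 for Hspd1, -2.21 to 2.50 for Hspe1 and -0.47 to 0.47 for Hspb1. The lone library of a condition was assumed to vary like the other group. The solvent level of Hspa1a and Hspa1b rests on 4 to 30 alignments a set, which limits the precision of their folds. For Hspa8 and the HSP70 copies, the words that 35 bases can place set what was measurable.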
